A study of Sus scrofa with 4 samples.

Results

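The Yorkshire library, labelled YY, was set against the libraries of 3 other pig breeds to ask which genes of Yorkshire back muscle lay outside the range of the others. All 4 libraries were made from total RNA of the longissimus dorsi, the long muscle of the back. YY comes from Yorkshire pigs, an introduced breed. The other libraries come from Diannan Small Ear pigs (DSP) and Tibetan pigs (TP), both indigenous Chinese breeds, and from Landrace pigs (LL), the other introduced breed. The labels name no treatment and give neither age, sex, feeding nor the number of animals behind a library. YY is therefore 1 library of 4, and everything below is a description without a test.

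Levels are FPKM, fragments counted per length of transcript and per number of mapped fragments, as the authors deposited them, and differences are on the log2(FPKM + 1) scale, which draws the differences of low genes toward 0. Compared were genes averaging 1 FPKM or more across the 4 libraries, with a locus spanning at least 300 bp and lying on 1 of the 18 autosomes, which left 10136 of 18208 entries. A gene was counted as set apart in YY when YY lay at least 1 log2 unit, a 2-fold difference on that scale, above the highest or below the lowest of DSP, TP and LL. That distance to the nearest other library is called the gap.

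Skeletal muscle consists mainly of fibres, long cells filled with sarcomeres, the repeating contractile units built of myosin, actin and their scaffold proteins. Around each fibre lies a basement membrane of laminin, nidogen, collagen IV and perlecan, and between the fibres fibroblasts lay down fibrillar collagens while capillaries run along them. RNA from a whole piece of muscle holds all of these cells, so fewer cells of a type and less RNA per cell cannot be told apart.

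The tissue label was checked against markers of muscle fibres. ACTA1, the skeletal muscle actin, had 50812 FPKM in YY, while DSP had 39517, TP 47397 and LL 16778. The muscle creatine kinase CKM had 18668 FPKM in YY, while DSP had 7845, TP 14054 and LL 3271. YY was highest in both, but not in the 2 myosin heavy chains on the marker list. MYH1, a fast chain, had 9131 FPKM in YY, while DSP had 14097, TP 7886 and LL 5708. MYH7, the slow chain, had 1391 FPKM in YY, while DSP had 1115, TP 810.0 and LL 1807. The lowest of these 4 markers in any library was MYH7 in TP. MYH2, MYH4, MYLPF and TNNT3 were not found under those symbols, although MYLPF was found under the older name HUMMLC2B.

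A difference that bears on every comparison with YY was seen on the Y chromosome, outside the autosomal genes. The 8 entries with a Y locus summed to 0.288 FPKM in YY, while DSP had 40.5, TP 144 and LL 63.0. No Y entry reached 1 FPKM in YY, and 6 of the 8 did in each other library. USP9Y, a Y-linked deubiquitinase, had 0.0218 FPKM in YY, while DSP had 3.72, TP 9.89 and LL 4.65. UTY, a Y-linked histone demethylase relative, was listed at 0 in YY and had 1.90 FPKM in DSP, 2.61 in TP and 3.50 in LL. YY thus stood apart in Y-linked RNA as well as in breed, and with 1 library each the breed and whatever goes with that RNA cannot be told apart.

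Across the 10136 genes, which are not independent replicates, YY correlated best with TP (r = 0.925), followed by DSP (0.874) and LL (0.845). The deposited FPKM of all entries summed to 1226120 in YY and to between 880279 and 1450760 in the others. Over the 10136 genes compared YY had the highest sum, 775288, while DSP had 684777, TP 521147 and LL 476660. Entries shorter than 300 bp, other than mitochondrial ones, took 5.55% of the sum in YY, 20.6% in DSP, 1.39% in TP and 17.7% in LL. Sequencing depth was not given, so no counting error could be attached to a value.

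YY was the library with the most genes set apart, 500 in either direction (4.93%), with 411 in TP (4.05%), 249 in LL (2.46%) and 130 in DSP (1.28%). YY lay above the 3 others in 279 genes (2.75% of those compared) and below them in 221 (2.18%). TP had 200 genes above (1.97%) and 211 below (2.08%), LL had 102 (1.01%) and 147 (1.45%), and DSP had 103 (1.02%) and 27 (0.266%). Over all genes the median of YY minus the middle value of the others was 0.003. YY held the highest level of the 4 libraries in 33.7% of genes and the lowest in 26.2%.

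How the 500 genes divided between the directions depended on scaling. As deposited, 55.8% of them lay above. After rescaling to a common median ratio 45.7% of 440 did, with 201 above and 239 below. When the libraries were instead brought to an equal total, counted without the top 50 genes and called the common sum below, 9.68% did, with 57 above and 532 below, and that scaling moved the median of all genes to −0.36. Of the genes above, 193 were kept under the median ratio and 57 under the common sum, and of the genes below, 206 and 221 were kept.

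**Figure D1:**
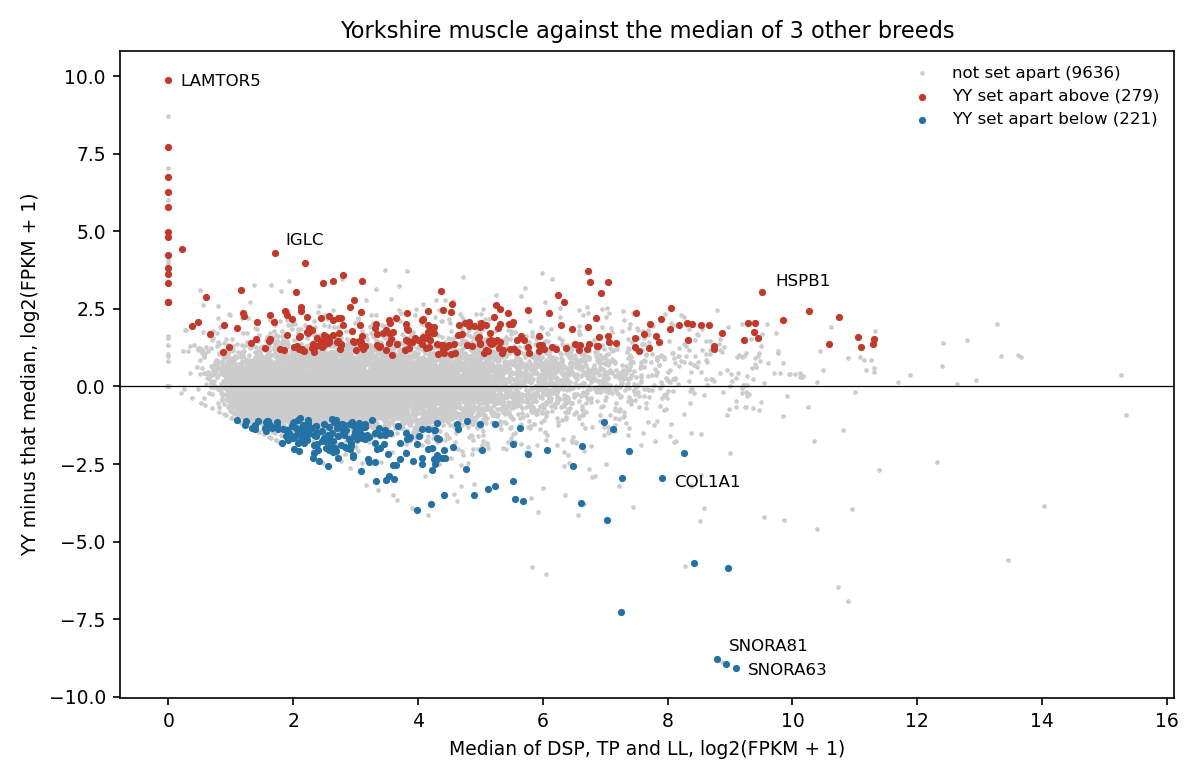
Each point is 1 of the 10136 genes, placed by the median of DSP, TP and LL (x axis, log2(FPKM + 1)) and by YY minus that median (y axis, same scale). Red points are the 279 genes set apart above in YY and blue points the 221 set apart below, and the genes at the left edge are those listed at 0 in at least a pair of the other libraries.

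The nearest other library was most often TP. TP was the highest of the others in 163 of the 279 genes set apart above (58.4%), DSP in 71 and LL in 45. TP was also the lowest of the others in 106 of the 221 genes set apart below (48.0%). The same shares over all genes compared were not computed. TP was itself set apart in 411 genes (4.05%), with 249 in LL and 130 in DSP. These counts alone therefore do not show that TP lay closest to YY. Taken pair by pair, 871 genes were at least 1 log2 unit higher in YY than in TP (8.59%) and 777 lower (7.67%). Against DSP the counts were 1193 higher (11.8%) and 1314 lower (13.0%), and against LL, the other introduced breed, 1676 higher (16.5%) and 1203 lower (11.9%). These 3 comparisons share the YY library.

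The genes nearest the threshold show how close the call can be. CSE1L, a nuclear export factor, was just inside, with 75.6 FPKM in YY, 37.3 in DSP, 33.0 in TP and 30.6 in LL. RPL4, a ribosomal protein, was just outside, with 1277 FPKM in YY, 608 in DSP, 638 in TP and 431 in LL. On the low side WWTR1, a transcriptional coactivator of the Hippo pathway also called TAZ, was just inside with 3.21 FPKM in YY, 11.1 in DSP, 7.43 in TP and 10.1 in LL. CCND2, a cyclin, was just outside with 0.936 FPKM in YY, 2.86 in DSP, 4.09 in TP and 2.86 in LL.

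Genes of the extracellular matrix and the basement membrane were low in YY. Of 43 matrix and fibroblast genes compared, 16 were set apart below in YY (37.2% against 2.18% of all genes), 0 above, and 36 had their lowest level there (83.7% against 26.2%). The list's median difference from the middle of the others was −1.06, against 0.003 over all genes. Its members summed to 509 FPKM in YY, while DSP had 1568, TP 1979 and LL 1369. No member was set apart below in DSP, TP or LL, and 9 were set apart above in TP. The count below was 15 under the median ratio, 20 under the common sum and 15 when each library was centred within bins of locus span, a later choice.

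Fibrillar collagens, the rope-like proteins that carry tension, led this group. COL3A1, collagen III, lies on chromosome 15 at 104067017 to 104105776 in the deposited coordinates, whose genome build was not stated. It had 19.2 FPKM in YY, while DSP had 154, TP 277 and LL 128, a gap of −2.68. COL1A2, the second chain of collagen I, had 14.1 FPKM in YY, while DSP had 89.0, TP 143 and LL 64.8. In both genes LL, the other introduced breed, was the nearest library and still far above YY.

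COL1A1, the main chain of collagen I, was read from an entry of 526 bp on chromosome 12 (26469601 to 26470127). It had 30.0 FPKM in YY, while DSP had 355, TP 234 and LL 240. Within 100 kb of it lay 3 more entries set apart below, known by their ID only, which makes 4 entries between 26412516 and 26477726 set apart below. ENSSSCG00000021015, the one with the largest gap, had 5.56 FPKM in YY, while DSP had 129, TP 136 and LL 111. Whether they belong to the same gene was not tested.

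COL5A2, a chain of collagen V, which sits inside collagen I fibrils, had 2.19 FPKM in YY, while DSP had 11.2, TP 16.5 and LL 13.1. It is the neighbour of COL3A1 on chromosome 15. COL5A1, its partner chain, was set apart with 2.24 FPKM in YY, while DSP had 7.36, TP 12.8 and LL 5.81. Of all 18 autosomal entries named as collagen chains, a grouping made after the values were seen, 12 were set apart below and 17 were lowest in YY. Over all genes these shares were 2.18% and 26.2%.

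YY was also lowest in proteins that bind and organise collagen. SPARC, a collagen-binding glycoprotein and the most abundant member of the list, had 69.0 FPKM in YY, while DSP had 356, TP 308 and LL 282. FN1, fibronectin, had 2.90 FPKM in YY, while DSP had 18, TP 18.8 and LL 26.5. FBN1, fibrillin 1 of microfibrils, had 0.808 FPKM in YY, while DSP had 8.17, TP 7.97 and LL 10.5. In these 3 genes the other breeds lay within 1 log2 unit of each other and YY at least 2.01 below the lowest.

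ABI3BP, a matrix protein outside the lists, had the largest gap among the low protein-coding genes with a symbol. It had 0.326 FPKM in YY, while DSP had 17.4, TP 12.9 and LL 23.4, in an entry of 891 bp on chromosome 13. The cross-linking enzyme LOX, lysyl oxidase, had 0.691 FPKM in YY, while DSP had 6.76, TP 4.82 and LL 12.2. LPR1, as the file names it, had 3.29 FPKM in YY, while DSP had 26.3, TP 19.6 and LL 33.6. YY was the low library in all 3.

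Matrix turnover and growth factor receptors of fibroblasts were among the remaining members, picked here, like COL5A1 and LOX, after their values were seen. MMP2, a gelatinase, had 6.17 FPKM in YY, while DSP had 13.4, TP 39.1 and LL 18.1. TIMP3, a matrix-bound protease inhibitor, had 11 FPKM in YY, while DSP had 83.6, TP 43.7 and LL 53.1. PDGFRA, a receptor that marks the fibroblast lineage of muscle, had 0.207 FPKM in YY, while DSP had 3.24, TP 2.67 and LL 3.80. Protease and inhibitor were thus both low in YY.

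Other fibroblast markers were lowest in YY without reaching the threshold. DCN, the proteoglycan decorin, had 63.4 FPKM in YY, while DSP had 88.6, TP 205 and LL 97.6. LUM, lumican, had 4.50 FPKM in YY, while DSP had 11, TP 31.2 and LL 8.08. For these small proteoglycans the step from YY to the next library was smaller than that between TP and the others.

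The basement membrane list held 8 of 13 genes set apart below in YY (61.5% against 2.18% of all genes) and 0 above. In 11 the lowest level was in YY (84.6% against 26.2%), and the median difference was −1.47. The count below was 8 under the median ratio and 11 under the common sum. These loci were long, with a median span of 62126 bp against 21470 bp over all genes, and the part of span was not tested. NID1, nidogen 1, which links laminin to collagen IV, had 1.92 FPKM in YY, while DSP had 21.9, TP 14.8 and LL 17.7. HSPG2, the proteoglycan perlecan, had 6.95 FPKM in YY, while DSP had 50.6, TP 28.5 and LL 31.5. COL4A1, collagen IV itself, had 11.8 FPKM in YY, while DSP had 38.9, TP 66.7 and LL 44.8.

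COL6A3, a chain of the pericellular collagen VI, had 3.19 FPKM in YY, while DSP had 19.8, TP 23.2 and LL 17.3. COL15A1, from the matrix list, which joins basement membrane to the matrix beneath, had 3.08 FPKM in YY, while DSP had 50.5, TP 36.8 and LL 22.3. LAMB1, a laminin chain, had 3.46 FPKM in YY, while DSP had 18.1, TP 17.0 and LL 14.9. NID2, LAMA4 and AGRN completed the 8, with gaps between −1.69 and −1.12. LAMC1 was the exception among the abundant members, with 30.4 FPKM in YY, 52.2 in DSP, 29.6 in TP and 47.2 in LL.

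**Figure D2:**
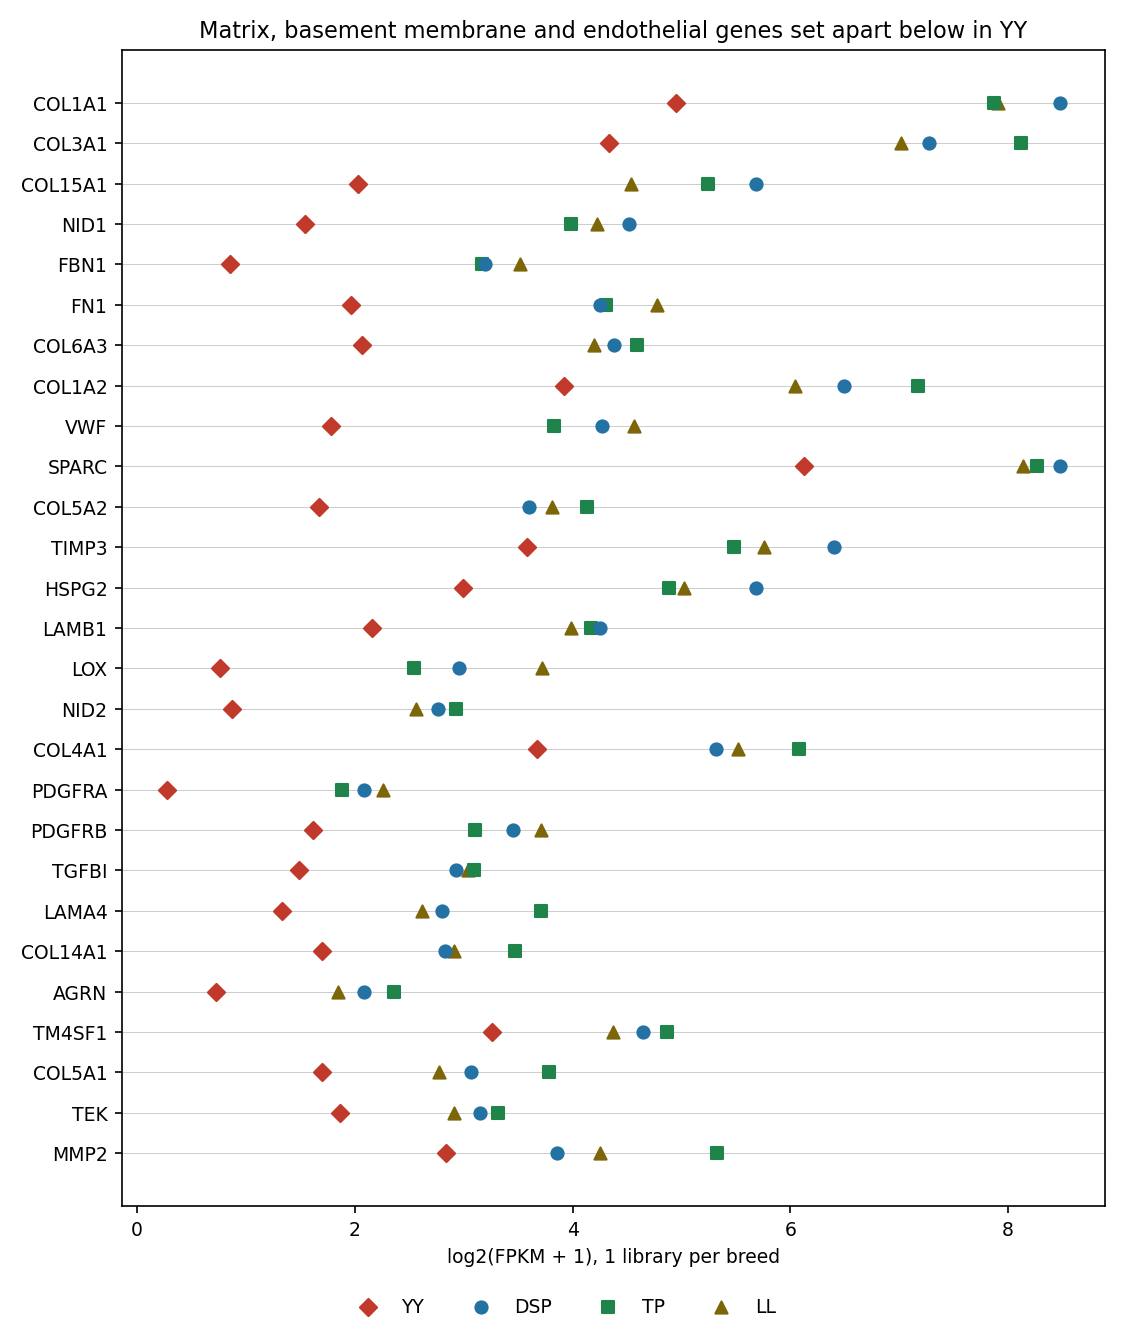
Levels of the matrix, basement membrane and endothelial list members set apart below in YY, on log2(FPKM + 1) (x axis), with 1 symbol per breed and 1 library each. The red diamonds of YY stand left of every other symbol in each row, as the threshold requires; the distance is widest in COL1A1, at 2.92, and narrowest in MMP2 and TEK.

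Endothelial and pericyte markers were lower in YY to a smaller degree. Of 24, 3 were set apart below (12.5% against 2.18% of all genes), 0 above, and 15 were lowest in YY (62.5% against 26.2%), with a median difference of −0.59. Their sum was 216 FPKM in YY, while DSP had 328, TP 501 and LL 329, and its part in the matrix result was not tested. VWF, the clotting factor stored in endothelium, had 2.43 FPKM in YY, while DSP had 18.3, TP 13.2 and LL 22.7. TEK, the angiopoietin receptor, had 2.63 FPKM in YY, while DSP had 7.90, TP 8.93 and LL 6.53. PECAM1, an adhesion protein of all endothelium, was lowest in YY but closer, with 23.8 FPKM, while DSP had 31.6, TP 62.4 and LL 36.2.

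Markers of macrophages, smooth muscle and fat held at most 1 gene a list that was set apart. Macrophage and leukocyte markers had 0 of 11 set apart in YY, against 4.93% of all genes in either direction. Their median difference was 0.17. It turned to −0.26 under the common sum, −0.16 with bins of locus span, −0.42 without LL and −0.54 without DSP. They summed to 28.9 FPKM in YY, while DSP had 24.4, TP 72.7 and LL 32.4. CD68, a macrophage glycoprotein, had 3.71 FPKM in YY, while DSP had 2.88, TP 2.06 and LL 2.89. C1QA, a complement gene of macrophages, had 3.84 FPKM in YY, while DSP had 1.62, TP 15.1 and LL 1.71. CD68 was the 1 member of 11 highest in YY, and 3 were lowest there. CSF1R, the receptor for the macrophage growth factor, had 0.857 FPKM in YY, while DSP had 1.39, TP 3.76 and LL 1.58. The leukocyte marker PTPRC, also called CD45, had 0.551 FPKM in YY, while DSP had 1.21, TP 1.59 and LL 1.29. The T cell marker CD3E, which averaged under 1 FPKM and is not among the 11, had 0.373 FPKM in YY, while DSP had 0.557, TP 1.35 and LL 0.606. CSF1R, PTPRC and CD3E were thus all lowest in YY.

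Smooth muscle markers had 1 of 9 set apart below (11.1% against 2.18% of all genes). It was MYLK, the kinase of myosin light chain, with 1.13 FPKM in YY, while DSP had 4.16, TP 3.44 and LL 4.35. The list's median was 0.65, and −0.05 without LL. TAGLN, which binds actin in smooth muscle, had 53.8 FPKM in YY, while DSP had 10.9, TP 89.3 and LL 17.2. The smooth muscle markers ACTA2 and MYH11 were instead lowest in YY. ACTA2 had 26.3 FPKM in YY, while DSP had 27.1, TP 70.6 and LL 28.4. MYH11, which lies on a scaffold and was not among the genes compared, had 2.02 FPKM in YY, while DSP had 3.62, TP 7.93 and LL 8.92. Adipocyte markers had 0 of 9 set apart (against 4.93% of all genes in either direction), 5 lowest in YY and a median of −0.38. PLIN1, which coats fat droplets, had 1.01 FPKM in YY, while DSP had 1.80, TP 11.5 and LL 1.38. Here YY was lowest, but close to DSP and LL.

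Haemoglobin transcripts, which come from red blood cells, were also lowest in YY. HBB, beta-globin, was set apart with 56.6 FPKM in YY, while DSP had 117, TP 321 and LL 126. HBA, alpha-globin, had 24.0 FPKM in YY, while DSP had 36.7, TP 204 and LL 43.0. HBB was not set apart under the median ratio or with bins of locus span. Whether blood left in the piece moved with the endothelial genes was not tested.

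Among the genes above the other breeds were small heat shock proteins and their partners. Of 25 chaperone genes, 5 were set apart above in YY (20% against 2.75% of all genes), 0 below, and 17 were highest there (68.0% against 33.7%), with a median difference of 0.85. The count above was 6 under the median ratio and 3 under the common sum. The list's members summed to 19896 FPKM in YY, while DSP had 7671, TP 6393 and LL 8323. The median stayed above 0 under both scalings, at 0.70 and 0.34.

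HSPB1, the small heat shock protein HSP27 that guards actin filaments, had 6058 FPKM in YY, while DSP had 586, TP 1246 and LL 733, a gap of 2.28. Its entry lies on chromosome 3 (9925862 to 9927499), and a second entry of the same name on chromosome 3 had 299 FPKM in YY, while DSP had 44.2, TP 77.0 and LL 53.1. How counting divided reads between such copies is not known, but YY was the high library in both. CRYAB, alpha-B crystallin, had 2810 FPKM in YY, while DSP had 674, TP 418 and LL 862. Its locus is shared with an entry named HSPB2-C11orf52, which was set apart above as well.

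HSPB8, the small heat shock protein that works with BAG3, had 2572 FPKM in YY, while DSP had 626, TP 559 and LL 1262. ZFAND2A, an arsenite-induced zinc finger protein tied to the proteasome, had 82.2 FPKM in YY, while DSP had 5.96, TP 3.92 and LL 22.6. UBB, a polyubiquitin gene, had 2052 FPKM in YY, while DSP had 701, TP 644 and LL 752. YY was the high library in all 3, and the other libraries differed least among themselves in UBB.

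Proteins that anchor and stabilise the sarcomere were the second such group. Of 31 scaffold and cytoskeleton genes, 4 were set apart above in YY (12.9% against 2.75% of all genes), 0 below, and 17 were highest there (54.8% against 33.7%). The median difference was 0.41 and became −0.12 under the common sum, where the median of all genes was −0.36 and 1 member was set apart. DES, the intermediate filament desmin, had 6462 FPKM in YY, while DSP had 2150, TP 2129 and LL 1829. TCAP, the titin cap at the Z-disc, had 4068 FPKM in YY, while DSP had 924, TP 1532 and LL 611. Desmin is known to be bound by CRYAB, and the other 3 libraries lay close together for it.

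ANKRD2, a stretch-responsive ankyrin protein, had 401 FPKM in YY, while DSP had 105, TP 24.0 and LL 146. TMOD4, which caps the pointed end of thin filaments, had 1536 FPKM in YY, while DSP had 467, TP 645 and LL 332. MYOZ1, a Z-disc binder of calcineurin, had 5303 FPKM in YY, while DSP had 2191, TP 2204 and LL 1295. In the calcium handling and triad list 0 of 24 genes were set apart in YY, against 4.93% of all genes in either direction.

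Contractile genes of both fibre types were compared next. Fast fibre genes were highest in YY in 8 of 11 cases, with a median of 0.97, and slow fibre genes in 8 of 13, with a median of 1.16, against 33.7% of all genes. Under the common sum these counts were 4 and 6, with medians of 0.65 and 0.64. LL was the lowest library in all 11 fast fibre genes, with 6 set apart below in LL, and in 1 of the 13 slow ones. Each list had 1 member set apart above in YY, against 2.75% of all genes. These were MYOZ1 (9.09% of the fast list) and ANKRD2 (7.69% of the slow list). The embryonic and regenerating fibre list had 1 of 10, DES (10% against 2.75% of all genes), and a median of −0.34. TNNC2, the fast troponin C, had 24775 FPKM in YY, while DSP had 12938, TP 13505 and LL 6200.2. TNNT1, a slow troponin T, had 2334 FPKM in YY, while DSP had 691, TP 1379 and LL 729. The myosin heavy chains MYH1 and MYH7, given above, were not highest in YY.

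**Figure D3:**
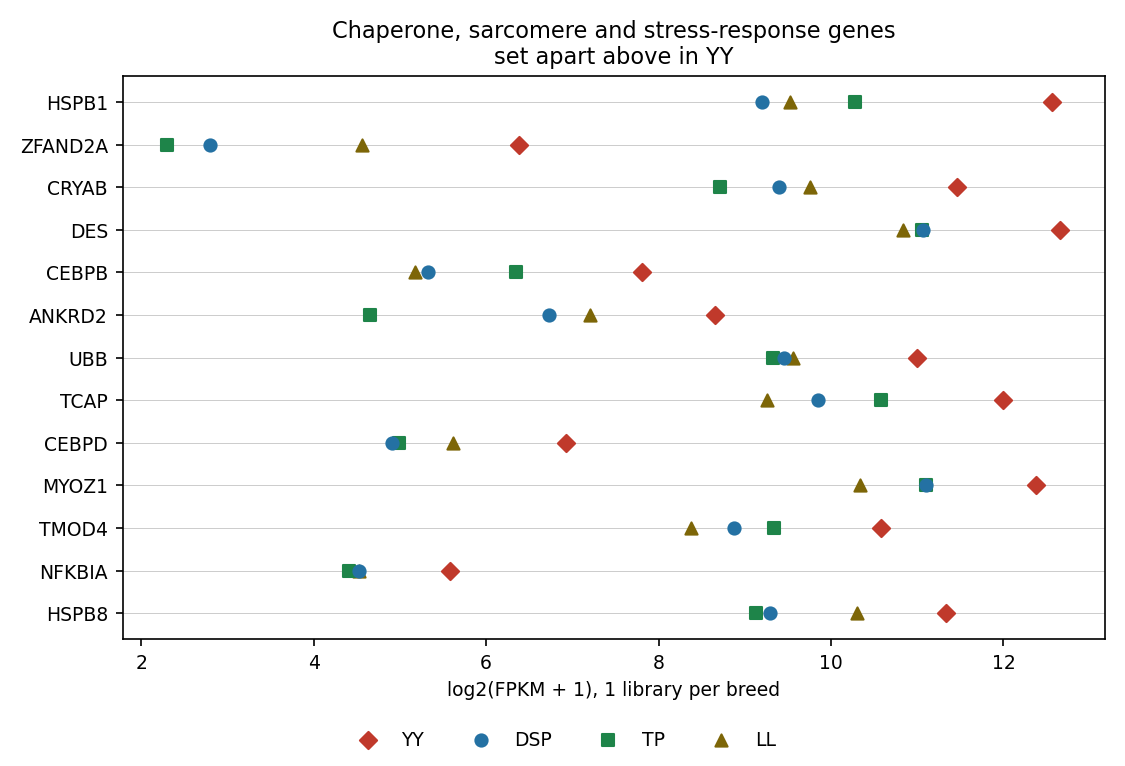
Levels of chaperone, sarcomere, fibre and glucocorticoid-response list members set apart above in YY, on log2(FPKM + 1) (x axis), with 1 symbol per breed and 1 library each. YY stands right of the others in each row; HSPB1 has the widest gap, at 2.28, and HSPB8 the narrowest, at 1.03.

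Ribosomal protein genes gave the most uniform shift. Of 55 genes of the cytosolic ribosome, 54 were highest in YY (98.2% against 33.7% of all genes), with a median difference of 1.95. Of the same 55, 17 were set apart above (30.9% against 2.75%). The members summed to 53433 FPKM in YY, while DSP had 14098, TP 27368 and LL 10504. TP was the next library, so that 52 members lay at least 1 above the others when TP was left out. YY remained highest in 53 under both scalings, but the count set apart was 3 under the median ratio, 0 under the common sum and 3 with bins of locus span. Ribosomal loci were short, with a median span of 4062 bp against 21470 bp over all genes.

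RPLP1, an acidic stalk protein of the large subunit, had 6606 FPKM in YY, while DSP had 1224, TP 2940.0 and LL 901. RPS25, of the small subunit, had 1367 FPKM in YY, while DSP had 132, TP 514 and LL 83.1. RPS3, which lines the entry channel for mRNA, had 1605 FPKM in YY, while DSP had 405, TP 702 and LL 311. All 3 ran in the order YY, TP, DSP and LL. Ribosomal protein genes have many processed copies in mammalian genomes, and how reads were divided among them is not known.

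Mitochondrial ribosomal proteins leaned the same way. Of 58, 54 were highest in YY (93.1% against 33.7% of all genes), with a median of 0.85. Of the same 58, 6 were set apart above (10.3% against 2.75%) and 0 below, and LL was lowest in 54. YY was highest in 53 under the median ratio and in 26 under the common sum. MRPL28 had 134 FPKM in YY, while DSP had 33.1, TP 51.7 and LL 22.1. Translation factors were highest in YY in 22 of 29 cases (75.9% against 33.7% of all genes). EIF3H, a subunit of initiation factor 3, was the 1 member set apart above (3.45% against 2.75%). It had 407 FPKM in YY, while DSP had 122, TP 193 and LL 131. Nuclear-encoded respiratory subunits were highest in YY in 42 of 55 cases (76.4% against 33.7% of all genes). As deposited 0 were set apart in YY, against 4.93% of all genes in either direction. LL was lowest in 52, with 13 set apart below in LL. Under the common sum YY was highest in 7.

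Proteasome subunits had 2 of 33 set apart above, PSMC3 and PSMD8 (6.06% against 2.75% of all genes), and 21 highest in YY (63.6% against 33.7%). Under the common sum 13 were highest in YY and 0 set apart. PSMC3, an ATPase of the regulatory particle, had 93.1 FPKM in YY, while DSP had 34.8, TP 43.4 and LL 26.6. Neither was set apart under the median ratio. In the muscle protein breakdown list 3 of 24 were set apart above (12.5% against 2.75% of all genes) and 0 below. That list had a median of 0.31. BNIP3, which takes part in the removal of mitochondria, had 308 FPKM in YY, while DSP had 58.5, TP 139 and LL 77.4. EIF4EBP1, a brake on translation, had 191 FPKM in YY, while DSP had 44.6, TP 88.1 and LL 44.8. The members set apart were UBB, BNIP3 and EIF4EBP1, and the atrophy ligases of this list were not among them.

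Regulatory genes that respond to hormones and stress made up a smaller set. In the glucocorticoid and fasting response list 3 of 16 were set apart above (18.8% against 2.75% of all genes) and 0 below. YY was highest in 6 of the 16 (37.5%, near the 33.7% of all genes), with a median of 0.27. CEBPB, a basic leucine zipper factor, had 223 FPKM in YY, while DSP had 38.9, TP 80.3 and LL 35.1, and its second entry was set apart as well. CEBPD, a close relative, had 120 FPKM in YY, while DSP had 29.0, TP 30.7 and LL 47.9. NFKBIA, the inhibitor that holds NF-kappa-B in the cytosol, had 46.9 FPKM in YY, while DSP had 22.0, TP 20.2 and LL 22.1. None of the 3 was set apart under the common sum. The most abundant members of the list, PDK4 and GLUL, were not highest in YY. PDK4 had 665 FPKM in YY, while DSP had 692, TP 21.4 and LL 546. GLUL had 302 FPKM in YY, the lowest level, while DSP had 504, TP 412 and LL 660. ATF4, the factor of the integrated stress response, was the single endoplasmic reticulum stress gene of 19 set apart (5.26% against 2.75% of all genes). It had 3999.7 FPKM in YY, while DSP had 1763, TP 1342 and LL 1533.

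In the list of 17 clock genes NR1D1, the repressor REV-ERB alpha, was set apart above in YY, also under both scalings. It had 71.4 FPKM in YY, while DSP had 18.1, TP 12.2 and LL 22.0. NR1D2, the paralogue of NR1D1, was not set apart, at 80.3 FPKM in YY, while DSP had 82.8, TP 51.0 and LL 68.2. The time of day at sampling is not in the labels.

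Hypoxia genes divided. ANKRD37, a target of hypoxia-inducible factor, was set apart above with 10.9 FPKM in YY, while DSP had 1.15, TP 1.29 and LL 1.83. NDRG1, another target of that factor, was set apart below with 0.995 FPKM in YY, while DSP had 6.84, TP 3.39 and LL 4.92. BNIP3, described above, was the other member set apart above, and the list's median was −0.05 over 18 genes. The 2 above made 11.1% of the list against 2.75% of all genes, and the 1 below 5.56% against 2.18%.

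Interferon response and MHC class I genes were lowest in YY in 22 of 38 cases, or 57.9% against 26.2% of all genes, with 3 set apart below, 1 above and a median of −0.57. The 3 below made 7.89% of the list against 2.18% of all genes, and the 1 above 2.63% against 2.75%. Among the members averaging at least 5 FPKM, 8 were lowest in YY and the median turned to 0.12. MX2, an antiviral GTPase, had 0.431 FPKM in YY, while DSP had 5.25, TP 3.27 and LL 12.2. OAS1, which senses double-stranded RNA, had 3.11 FPKM in YY, while DSP had 8.93, TP 9.48 and LL 9.36. IFI44 was the third, with 0.934 FPKM in YY, while DSP had 3.85, TP 3.14 and LL 4.95. CXCL10 went the other way, a chemokine whose 24.6 FPKM in YY exceeded the 1.24 of DSP, 3.35 of TP and 8.11 of LL.

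In the lists of fat and sugar metabolism few members were set apart. Of 18 genes of fatty acid and triglyceride synthesis, 2 were set apart below, or 11.1% against 2.18% of all genes, both at the start of the pathway. ACLY, which makes cytosolic acetyl-CoA, had 2.27 FPKM in YY, while DSP had 7.02, TP 23.8 and LL 6.27. ACACA, the acetyl-CoA carboxylase, had 0.382 FPKM in YY, while DSP had 2.0, TP 5.05 and LL 1.91. YY was lowest in both and TP highest.

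PYGL, the liver form of glycogen phosphorylase, was the only glycolysis and glycogen gene of 28 set apart, with 2.53 FPKM in YY, while DSP had 9.13, TP 7.31 and LL 8.94. That is 3.57% of the list, near the 2.18% of all genes set apart below. In fatty acid uptake and oxidation 0 of 28 were set apart, and in the citric acid cycle 0 of 20, against 4.93% of all genes in either direction. Among mitochondrial carriers SLC25A39 was the 1 of 29 set apart above (3.45%, near the 2.75% of all genes). It had 52.9 FPKM in YY, while DSP had 20.2, TP 23.4 and LL 13.4. GAPDH, a glycolytic enzyme often used to normalise, was itself uneven, at 39576 FPKM in YY, 9876 in DSP, 28168 in TP and 4174 in LL.

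In the cell cycle list 1 of 6 genes was set apart below (16.7% against 2.18% of all genes). CCND1, cyclin D1, had 0.275 FPKM in YY, while DSP had 11, TP 7.52 and LL 4.39, in an entry of 933 bp. The lists for myogenic factors and growth axis, immediate early genes, MHC class II genes, mRNA splicing and RNA binding, nutrient transporters, and Schwann cell and nerve markers had 0 members set apart in YY. They held 17, 21, 5, 25, 19 and 4 genes, and over all genes 4.93% were set apart in either direction. At that share a list this short can hold 0, so these counts single out no list.

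**Figure D4:**
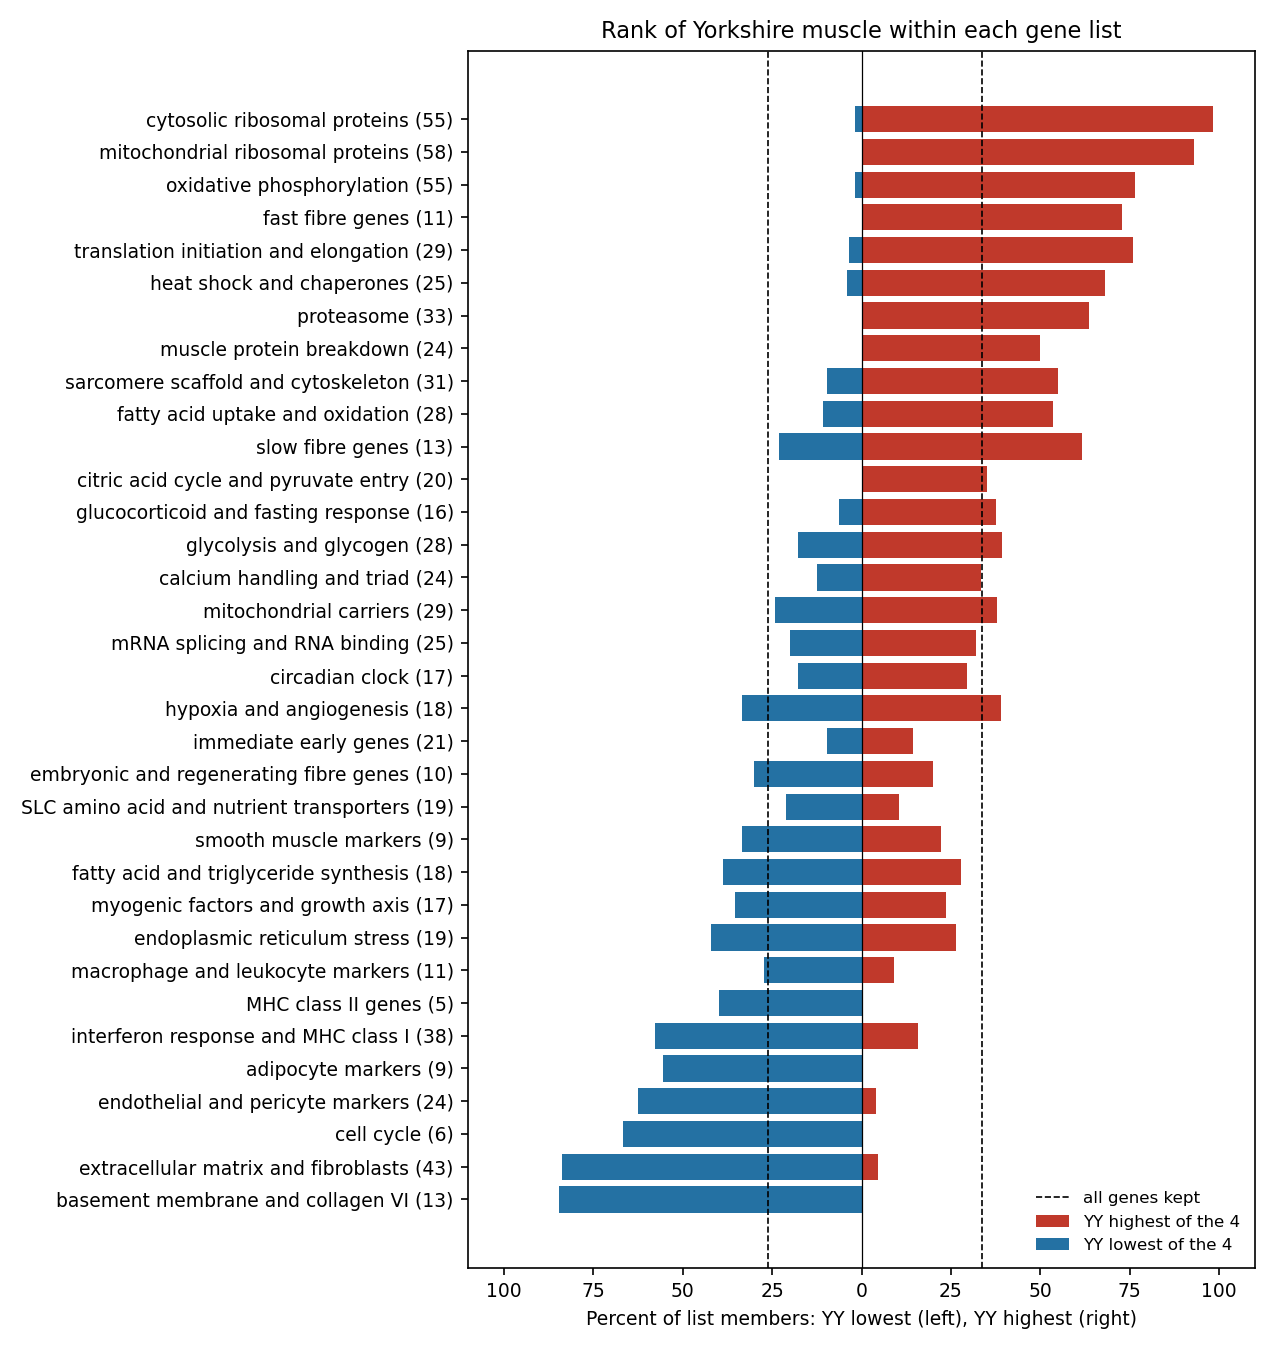
For each gene list with at least 5 genes compared (number in brackets), the percent of members with YY highest of the 4 libraries (red, to the right) and lowest (blue, to the left). The dashed lines mark 33.7% and 26.2%, the shares over all 10136 genes; cytosolic ribosomal proteins reach 98.2% on the right and the basement membrane list 84.6% on the left.

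Several of the widest gaps belonged to entries listed at 0 in some of the libraries. LAMTOR5, a scaffold of lysosomal nutrient sensing, had 939 FPKM in YY and was listed at 0 in DSP, TP and LL, in an entry of 975 bp on chromosome 4. Entries named U6 and 5S_rRNA, small RNAs inside loci of 80083 to 132055 bp, were listed at 0 in the 3 other libraries and had 210, 107 and 54.2 FPKM in YY. In all, 9 of the 279 genes above were listed at 0 in every other library, and so were 9 of all 10136 genes compared. Such an entry passed the filter on the mean through YY alone, so its call was fixed in advance. SNORA63 and SNORA81, small nucleolar RNAs that share a locus on chromosome 13, were listed at 0 in YY and had 4479 and 440 FPKM in DSP, 69.9 and 12.2 in TP, and 544 and 473 in LL. An entry of SNORA3 had 76.7 FPKM in YY, 0 in DSP, 14.5 in TP and 0 in LL. The share of such short RNAs differed between the libraries, as given above, and its part in these entries was not tested.

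Protein-coding genes with wide gaps outside the lists covered several functions. IGLC, an immunoglobulin light chain, had 63.9 FPKM in YY, while DSP had 2.28, TP 3.69 and LL 1.63. CISH_TV2, a transcript of the cytokine signalling inhibitor CISH, had 89.0 FPKM in YY, while DSP had 7.59, TP 7.59 and LL 9.78. S100A1, a calcium sensor of striated muscle, had 174 FPKM in YY, while DSP had 12.3, TP 33.6 and LL 19.6, from an entry of 335 bp. The 3 other breeds lay near each other in CISH_TV2, and YY alone was high.

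LYSMD2 had 57.3 FPKM in YY, while DSP had 3.71, TP 11.8 and LL 11.5. SLC9A3R1, a scaffold of membrane transporters, had 14.4 FPKM in YY, while DSP had 1.53, TP 2.10 and LL 2.76. KLHDC8B had 26.6 FPKM in YY, while DSP had 6.06, TP 5.98 and LL 5.81. Among genes with an ID only, ENSSSCG00000011452 had 1384 FPKM in YY, while DSP had 105, TP 180 and LL 64.0. Each of these 4 was at least 1.96 above the next library.

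Beyond the floor of 300 bp, the rule did not use locus span, and the genes set apart in either direction differed in it. The median span was 9505 bp for genes above, 28055 bp for genes below and 21470 bp for all genes compared. Ordered by span and divided into 5 equal groups, the genes with the shortest loci (300 to 6321 bp) had 5.57% above and 2.37% below. Those with the longest (70442 to 882161 bp) had 1.73% above and 2.91% below.

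YY minus the middle of the others had a median of 0.27 in the group of shortest loci and −0.24 in the longest. DSP ran the opposite way, with −0.04 and 0.24, as did LL, with −0.20 and 0.13, and TP had 0.07 and −0.25. A locus span is not a transcript length, and its part in the results was not tested. With each library centred within 20 bins of span, 210 genes were above, 180 of them among the 279, and 245 were below, 179 of them among the 221.

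**Figure D5:**
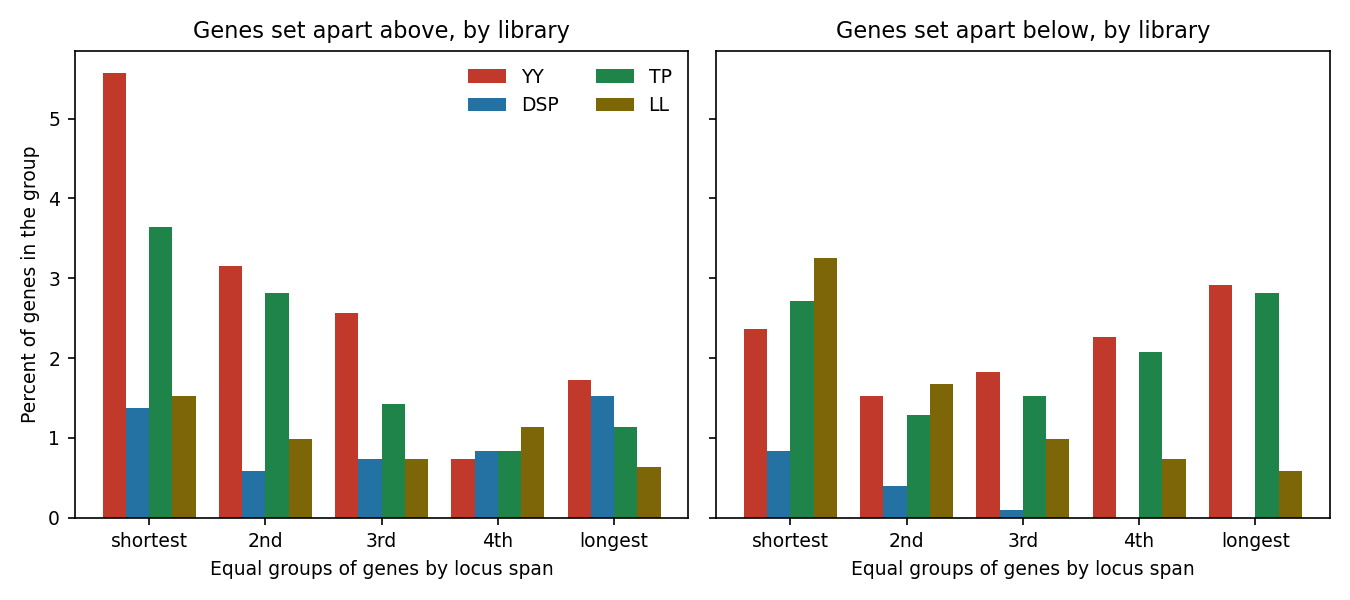
Percent of genes set apart above (left panel) and below (right panel) in each library, within 5 equal groups of the 10136 genes ordered by locus span. In YY the share above is 5.57% in the group of shortest loci and 1.73% in the longest, while the share below is 2.37% and 2.91%.

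Genes set apart lay on every autosome. The share above ran between 1.06% on chromosome 16 and 4.27% on chromosome 3, and the share below between 0.455% on chromosome 18 and 3.65% on chromosome 11. Within 100 kb of another gene set apart the same way lay 60 of the 279 genes above, in 28 runs, and 42 of the 221 below, in 18 runs. Some runs joined neighbouring genes, such as TNFRSF12A with HCFC1R1, and others joined entries that share a locus, such as CRYAB with HSPB2-C11orf52. In the genes set apart, the 3 other breeds spanned a median of 0.74 log2 units above and 0.66 below, against 0.73 over all genes.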

How the data were processed

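RNA of the longissimus dorsi muscle of 4 pig breeds was sequenced, 1 library per breed. The authors deposited FPKM per gene and library, and per the submitters' processing notes reads were aligned with TopHat; its version, genome build, annotation and FPKM program were not stated. The depth is unknown. The breeds' columns of the first deposited sheet were used, and the other sheets were not.

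Of the 10136 genes compared, the deposited table itself named 7387, a reference table supplied 1060 names through the IDs, and 1689 remain IDs; 1450 shared a locus with another entry. Locus span is end minus start as deposited. In the 36 lists the most abundant entry of a symbol was used, with synonyms from RefSeq's table for Sscrofa11.1. YY was compared with the highest and the lowest of DSP, TP and LL on log2(FPKM + 1), in Python 3.11.15 with numpy 2.4.6, pandas 2.3.3 and matplotlib 3.10.9, and the steps were checked on simulated data. No p-value was computed, as each breed has 1 library.

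Named were the 12 largest gaps in each direction with a symbol and a mean of at least 5 FPKM, list members set apart (at most 8 per direction), the 2 most abundant members of a list, the markers, the 3 genes nearest the threshold on each side and at most 2 genes with an ID only per direction. Not all of them are described, and a few are not reported here. The members, the lists and the rule were chosen with earlier results of these data known. The alternatives were pseudocounts of 0.1 and 5, filters, scalings, a gap of 2, leaving out each other library and summing entries; leaving out shared loci (227 above and 194 below) and the bins of span were chosen after seeing the data.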

Additional observations from a re-analysis of the deposited data

How the results depend on the processing

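The counts of genes set apart, 279 above and 221 below, depended most on scaling, pseudocount and threshold. A pseudocount of 5 gave 175 above and 41 below, and a pseudocount of 0.1 gave 589 below. A gap of at least 2 log2 units left 21 above and 27 below. A filter of 5 FPKM left 120 below, and the common sum gave 57 above and 532 below. Leaving out 1 of the other libraries can only add genes, and gave 336 to 973 above and 298 to 766 below, the highest counts without TP. The remaining settings stayed within 1.5 times of both counts. No gap of a named gene set apart turned direction under any setting, and 528 of 540 list medians moved by less than 1.5-fold. Under the common sum the medians of the protein breakdown, sarcomere scaffold, glucocorticoid, clock, immediate early, glycolysis, citric acid cycle, fatty acid oxidation, calcium, macrophage, splicing and mitochondrial carrier lists turned below 0, none below −0.41. No paired analysis was possible because each breed had 1 library. Without counts, depth cannot be set against the low values, such as the matrix genes under 1 FPKM in YY.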

Other observations

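The genes in this paragraph were chosen after their values were seen. A pair of iron genes stood apart in opposite directions. FTL, the light chain of the iron store ferritin, had 944 FPKM in YY, while DSP had 171, TP 261 and LL 286. TFRC, the transferrin receptor that brings iron into cells, had 15.3 FPKM in YY, while DSP had 78.9, TP 43.7 and LL 66.1. An entry the file names IGFI had 0.553 FPKM in YY, while DSP had 3.43, TP 3.52 and LL 2.83. Of 14 autosomal HOX genes, which carry positional identity along the body, 3 were set apart above in YY and 0 below. Over all genes 2.75% were set apart above and 2.18% below. YY was highest in 6 of the 14 and lowest in 3, against 33.7% and 26.2% of all genes. HOXD1 had 43.1 FPKM in YY, while DSP had 11.8, TP 2.05 and LL 6.54, and HOXD9 had 25.7 FPKM in YY, while DSP had 6.66, TP 8.69 and LL 2.79.

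Outside the autosomal genes, 360 entries on the X chromosome passed the same filters, and 8 were set apart above (2.22%) and 8 below (2.22%). MSN, moesin, which ties membrane to actin, had 9.83 FPKM in YY, while DSP had 35.9, TP 30.5 and LL 32.8. GPC3, a glypican of the cell surface, had 2.49 FPKM in YY, while DSP had 7.99, TP 11.9 and LL 8.51. BCAP31, a protein of the endoplasmic reticulum, had 283 FPKM in YY, while DSP had 104, TP 112 and LL 73.5. Among 990 entries on unplaced scaffolds 22 were above (2.22%) and 29 below (2.93%). Among 125 autosomal entries under 300 bp 9 were above (7.20%) and 7 below (5.60%).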
